A study of Mus musculus with 47 samples.

Results

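Rn45s, the gene record of the ribosomal RNA (rRNA) precursor, and Lars2, a gene with an rRNA-like stretch in its last exon, were selected on a measured value, their share of each library's counts. They are 2 of the 23416 gene symbols that each table lists once, and both were measured in all 10 libraries that come with a count table. Because the shares chose them, the shares, the CPM (the same values on another scale) and the fold changes of these 2 genes are given here as a description, with standard errors and without p-values. RNA was measured in liver and in motile spermatozoa of the cauda epididymis, collected by swim-up, from males of 8 to 12 weeks. Ctrl-F1 and Scml2-KO-F1 males (here KO-F1, background strain BDF2) were born after intracytoplasmic injection of testicular sperm of wild-type littermates or of Scml2-KO males, respectively, and Scml2-KO-F2 males (here KO-F2, BDF3) were born after single KO-F1 males were mated with C57BL/6 females. Each of the 5 groups, Ctrl-F1 liver, KO-F1 liver, Ctrl-F1 spermatozoa, KO-F1 spermatozoa and KO-F2 spermatozoa, had 2 replicates. No Ctrl-F2 library was analysed here, so generation, strain and paternal history change together between KO-F2 and Ctrl-F1. The F1 and F2 males are not themselves Scml2 knockouts by this scheme, because the deleted copy sits on the father's X chromosome, so the level of Scml2 cannot check the labels.

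In mammals, RNA polymerase I transcribes a long 45S precursor that is cut into the 18S, 5.8S and 28S rRNA of the cytosolic ribosome, and Rn45s is the mouse gene record of this precursor. Most RNA of a cell is rRNA, which carries no poly(A) tail, so library kits that start from poly(A) tails keep only a small part of it. Spermatozoa no longer translate on cytosolic ribosomes to any large extent, and their RNA holds many fragments of rRNA. Lars2 encodes the mitochondrial leucyl-tRNA synthetase, the enzyme that charges mitochondrial tRNA with leucine, and in the mouse genome the 3' untranslated part of this gene also carries a stretch that resembles large-subunit rRNA.

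Lars2 lies on the plus strand of chromosome 9 of GRCm38, at chr9:123366927-123462675, and has 21 exons in the RefSeq annotation. Its last exon, chr9:123461499-123462675, is 1177 bases long and holds 997 bases of 3' UTR. Within that UTR a stretch of 399 bases, chr9:123461791-123462189, had 30 further alignments of at least 75 bases on the assembled chromosomes, with an identity of 78.8% to 98.8%. Of these 30, 14 lay inside a gene of the GENCODE annotation and 2 overlapped an exon. The stretch held AGTACGAGA, the 9 letters at the core of the sarcin-ricin loop, one of the most conserved parts of large-subunit rRNA. Searched on both strands, these letters were found in 0.0913% of 102906 windows of the last exon's length along chromosome 9. The following windows show the match in Lars2 and in the 2 copies that hold the same letters with at least 10 bases on either side (these letters in capitals).
Lars2 last exon (chr9:123462159-123462187, plus strand): aatcctgctcAGTACGAGAggaaccgcag
copy within Kpna1 (chr16:35981657-35981685, minus strand): aatcctgctcAGTACGAGAggaacagcac
copy within Cntnap5b (chr1:100180199-100180227, minus strand): aatcttgctcAGTACGAGAggaatcgcag

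Each copy matched 27 of the 29 bases of the Lars2 window. Of the 1103 windows of 75 bases, the read length of the study, in the last exon of Lars2, 0 had an exact second copy on the assembled chromosomes. The copy inside Kpna1 overlapped an exon of Gm15564, which is not a symbol of the tables, and the copy inside Cntnap5b was intronic. Cntnap5b had 0 counts in every liver library and between 8 and 27 in the F1 sperm libraries, and Kpna1 between 23 and 63 there. Lars2 had between 59482 and 105788 in the F1 sperm libraries. Neither copy overlapped an annotated exon of Kpna1 or Cntnap5b, so transcript counts of these genes cannot show how many reads the copies draw. A count table gives 1 number per gene, so the part of Lars2 that its reads came from was not measured. No genome position or sequence is given here for Rn45s.

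In liver, Rn45s took 0.636% of the counts in Ctrl-F1 replicate 1 (95% Wilson interval 0.632% to 0.640%) and 0.706% in replicate 2 (0.702% to 0.710%). In KO-F1 liver it took 1.21% (1.21% to 1.22%) and 1.59% (1.58% to 1.60%). Both KO-F1 livers therefore lay above both Ctrl-F1 livers, and Rn45s ranked 15 and 14 among all genes in the Ctrl-F1 libraries and 6 in both KO-F1 libraries. These intervals cover counting error only. Lars2 took 0.0822% and 0.0719% in the Ctrl-F1 livers, against 0.117% and 0.139% in the KO-F1 livers, again without overlap between the groups. How many of all genes separate these 2 groups in this way was not counted, so the lack of overlap sets neither gene apart.

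In spermatozoa the same 2 genes took far larger shares. Rn45s was the most abundant gene of 5 of the 6 sperm libraries, with shares of 20.6% and 28.7% for Ctrl-F1, 15.7% and 28.6% for KO-F1 and 13.3% for KO-F2 replicate 1. In KO-F2 replicate 2 it took 3.52% (3.51% to 3.54%) and ranked 3, behind Lars2 and Prm2, which encodes a protamine that packs sperm DNA. Lars2 took 3.75% and 5.51% for Ctrl-F1, 2.14% and 5.07% for KO-F1, and 2.40% and 4.36% (4.34% to 4.37%) for KO-F2 spermatozoa. The Ctrl-F1 and KO-F1 ranges overlapped for both genes. Both KO-F2 libraries lay below every F1 library for Rn45s and within the F1 range for Lars2. How many other genes separate KO-F2 from F1 in this way was not counted. Together the 2 genes took between 7.88% and 34.3% of the counts of a sperm library and between 0.718% and 1.73% of those of a liver library. Library kit and tissue cannot be told apart in this contrast, since liver RNA was made into libraries with a poly(A)-selecting kit and sperm RNA with a full-length amplification kit for very low input.

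**Figure D1:**
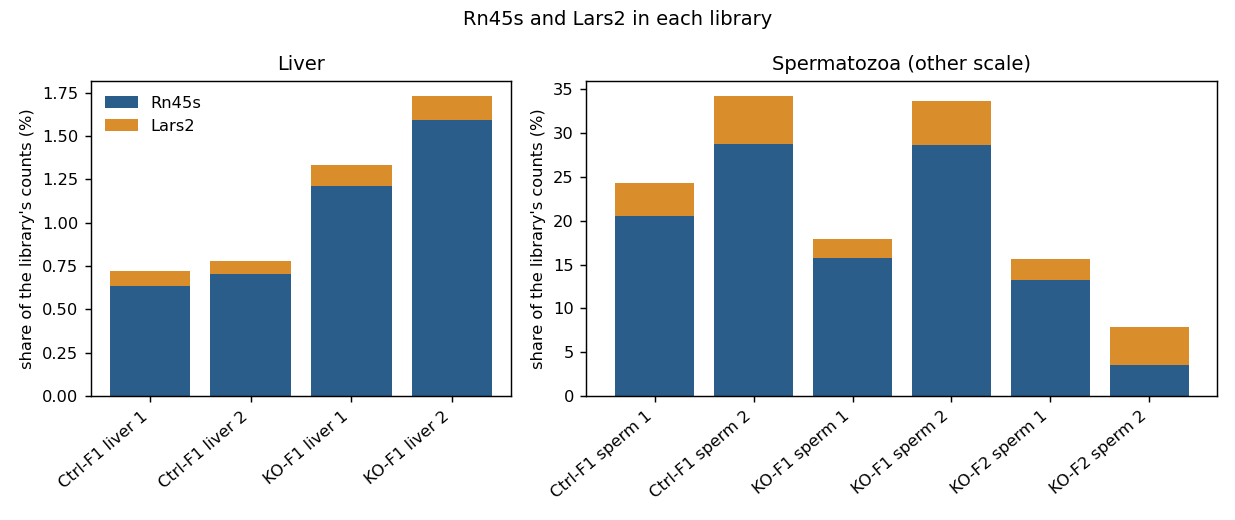
Share of each library's counts (%) taken by Rn45s (lower bar) and Lars2 (stacked above it), 1 bar per library, with liver and spermatozoa on separate vertical scales. The 4 liver bars reach between 0.718% and 1.73%, and the 6 sperm bars between 7.88% in KO-F2 replicate 2 and 34.3% in Ctrl-F1 replicate 2.

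The ratio of the 2 genes set 1 library apart. For 100 counts of Rn45s there were 12.9 and 10.2 counts of Lars2 in Ctrl-F1 liver and 9.67 and 8.75 in KO-F1 liver. The ratio was 18.2 and 19.2 in Ctrl-F1 spermatozoa, 13.6 and 17.7 in KO-F1 spermatozoa and 18.1 in KO-F2 replicate 1. In KO-F2 replicate 2 it was 124 (95% interval 123 to 124 from counting error alone), in a library of 8384266 counts. The other 9 libraries thus lay between 8.75 and 19.2, and the library labelled KO-F2 replicate 2 stood outside that range by its low Rn45s share, its Lars2 share being inside the range of the other sperm libraries. Over the 6 sperm libraries the log2 CPM (counts scaled to a common library total) of the 2 genes had a Pearson r of 0.17 and a Spearman rho of 0.60. Without the 2 libraries farthest from the median Rn45s level, KO-F2 replicate 2 and Ctrl-F1 replicate 2, r was 0.94 over 4 libraries. These are descriptions across libraries that share a kit and differ in depth. Comparisons with KO-F2 are therefore also given without this library.

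**Figure D2:**
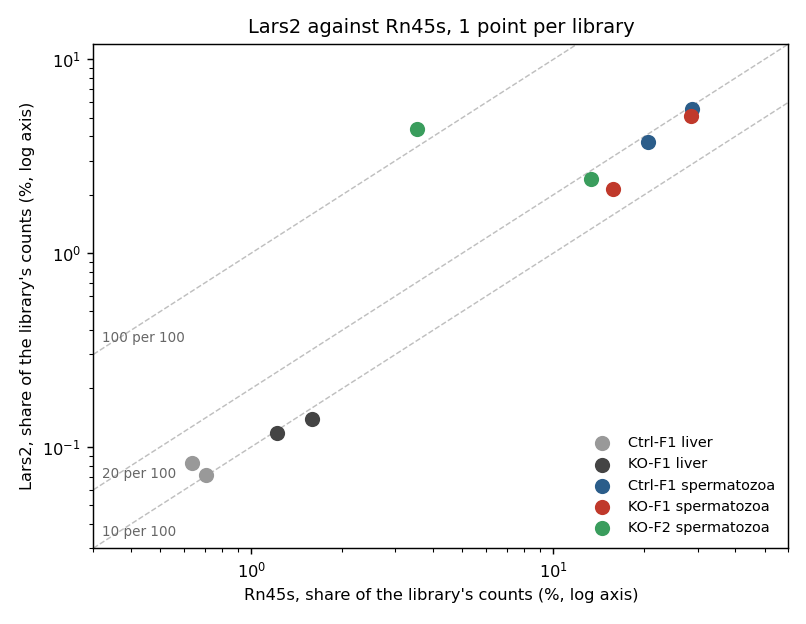
Lars2 against Rn45s, each as share of the library's counts (%, log axes), 1 point per library coloured by group, with dashed lines at 10, 20 and 100 Lars2 counts per 100 Rn45s counts. Of the 10 points, 9 lie between 8.75 and 19.2 per 100, and KO-F2 replicate 2 lies at 124.

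Marker genes matched the labelled tissues. Hepatocyte markers summed to between 12.9% and 14.3% of the counts in liver and to at most 0.00178% in spermatozoa, and sperm markers to at most 0.000126% in liver. In spermatozoa, sperm markers summed to 13.5% and 12.0% for Ctrl-F1, 5.99% and 4.49% for KO-F1, and 15.6% and 15.4% for KO-F2. Leukocyte markers (9 of 10 listed genes were in the tables) summed to at most 0.0740% in each F1 sperm library and to 0.354% and 0.489% in KO-F2, and epididymal epithelium markers to between 0.669% and 2.01% in F1 and to 0.344% and 0.179% in KO-F2. Crisp1 was the highest of the epididymal markers in every sperm library, at 5448 to 18255 CPM in F1 and 2856 and 1260 CPM in KO-F2. The median over these markers overlapped, at 12.8 to 38.2 CPM in F1 and 15.0 and 28.7 CPM in KO-F2. Between KO-F2 and Ctrl-F1, 4 of 11 tested epididymal markers had a positive and 7 a negative log2 fold change. The part of these marker groups in the Rn45s and Lars2 values was not tested. Library totals were 11339729 to 14278900 in liver, 1503733 to 2778171 for the F1 sperm libraries, and 8384266 and 11462105 for those of KO-F2, and the labels name a sequencing run for liver and KO-F2 spermatozoa but none for F1 spermatozoa. Run, depth and generation cannot be told apart in the sperm comparisons with KO-F2. In bulk RNA, a higher level of a gene and a larger share of the cells that hold it cannot be told apart either.

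The comparison of KO-F1 with Ctrl-F1 liver asked whether the offspring of Scml2-KO fathers differ in a somatic tissue. Rn45s was at 12137 and 15914 CPM in KO-F1 and at 6356 and 7060 CPM in Ctrl-F1 liver, and its log2 fold change was 1.14 (standard error 0.23) after TMM scaling, which sets libraries by the bulk of their genes. The fit was made by edgeR over all 11505 genes that passed the filter on low counts. Lars2 differed in the same direction, with a log2 fold change of 0.80 (0.19). With each liver library left out in turn, Rn45s ranged from 0.89 to 1.36 and Lars2 from 0.63 to 0.96. Since the groups did not overlap for either gene, leaving 1 library out could hardly turn the direction. A gene counted as called when it differed by 2-fold or more with its adjusted p below 0.01. By this rule 0% of all tested genes were called (0 of 11505, while 1083 had an unadjusted p under 0.05 and DESeq2 called 20, Rn45s among them).

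Other untranslated RNAs were looked up in the same livers. Of 26 listed rRNA and small stable RNA genes, 10 were in the tables, among them Rn45s, and 3 of the other 9 passed the filter on low counts in liver. Malat1, a long nuclear RNA, was at 45.6 and 48.5 CPM in KO-F1 and 38.1 and 24.9 CPM in Ctrl-F1 liver (log2 fold change 0.63, standard error 0.24). Neat1, the RNA on which nuclear paraspeckles form, was at 11.2 and 12.1 against 6.86 and 7.92 CPM (0.72, standard error 0.23). Rpph1, the RNA of ribonuclease P, was at 1.06 and 1.85 against 0.770 and 0.357 CPM (1.41, standard error 0.68). Of these 3, 0 were called (adjusted p 0.485 to 0.561, edgeR), beside 0% of all 11505 tested genes. Rmrp, the RNA of ribonuclease MRP, which cuts the rRNA precursor, was at 0.736 and 1.23 against 0.420 and 0.357 CPM. Rn4.5s, Terc, Rprl1, Rprl2 and Rprl3 had 0 counts in all 4 liver libraries, which allows up to between 0.210 and 0.265 CPM.

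The machinery that makes rRNA was measured from a list of 41 genes of RNA polymerase I and rRNA processing. In liver 40 of them were tested and 0 were called, with a median log2 fold change of 0.02 where the median of all tested genes was -0.01. Ncl, which encodes nucleolin of the nucleolus, was at 231 and 189 CPM in KO-F1 and 217 and 219 CPM in Ctrl-F1 liver, and Nop10, a part of the particles that modify rRNA, at 66.9 and 65.3 against 50.8 and 64.4 CPM. Leukocyte markers summed to 0.0138% and 0.0290% in KO-F1 and 0.0127% and 0.0211% in Ctrl-F1 liver, so these ranges overlapped, and 8 of 8 tested leukocyte markers had a positive log2 fold change (median 0.37) with 0 called. Hepatocyte markers summed to 13.6% and 14.3% in KO-F1 and 13.2% and 12.9% in Ctrl-F1 liver. Of the 10 hepatocyte markers, 7 had a positive and 3 a negative log2 fold change, from -0.87 to 0.52, with 0 called. The part of these markers in the Rn45s difference was not tested.

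KO-F1 and Ctrl-F1 spermatozoa were compared to ask whether the RNA of the F1 germline differs with the father's genotype. Rn45s was at 157474 and 286156 CPM in KO-F1 and at 205785 and 287421 CPM in Ctrl-F1 spermatozoa, so the groups overlapped. Its log2 fold change was -0.59 (0.70), and that of Lars2 was -0.79 (0.65). Single libraries moved both values, from -1.17 without KO-F1 replicate 2 to -0.18 without Ctrl-F1 replicate 2 for Rn45s, and from -1.64 without KO-F1 replicate 2 to -0.28 without KO-F1 replicate 1 for Lars2. No gene among 10785 tested was called in this comparison (0%), whereas 2105 had an unadjusted p under 0.05 and DESeq2 called 390.

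The 2 comparisons of KO-F2 spermatozoa share the KO-F2 libraries, and both comparisons with Ctrl-F1 share the Ctrl-F1 libraries. Against Ctrl-F1, Rn45s was at 132749 and 35236 CPM in KO-F2, a log2 fold change of -1.74 (0.91), and Lars2 was at 24032 and 43556 CPM against 37523 and 55086 CPM, a log2 fold change of -0.65 (0.61). Without KO-F2 replicate 2 the values were -1.05 (1.00) for Rn45s and -1.11 (0.86) for Lars2, and without KO-F2 replicate 1 they were -2.98 (1.19) and -0.26 (0.88). Without Ctrl-F1 replicate 1 they were -2.02 and -0.96, and without Ctrl-F1 replicate 2 they were -1.29 and -0.16. Here too 0% of the genes were called (0 of 13149 by edgeR, 1960 with an unadjusted p under 0.05 and 277 by DESeq2). Against KO-F1, the log2 fold change was -0.98 (0.80) for Rn45s and 0.28 (0.62) for Lars2. Without KO-F2 replicate 2 it was -0.27 (0.76) and -0.12 (0.71), without KO-F2 replicate 1 it was -2.27 and 0.65, and without KO-F1 replicate 2 it was -0.46 and 1.10. In this comparison 2.31% of the tested genes were called by edgeR (312 of 13517), or 0 with library totals in place of TMM, 230 to 2898 with 1 library left out and 2058 by DESeq2. The sign of Lars2 turned without KO-F2 replicate 2, without KO-F1 replicate 1 (-0.28) and with library totals (-0.09).

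**Figure D3:**
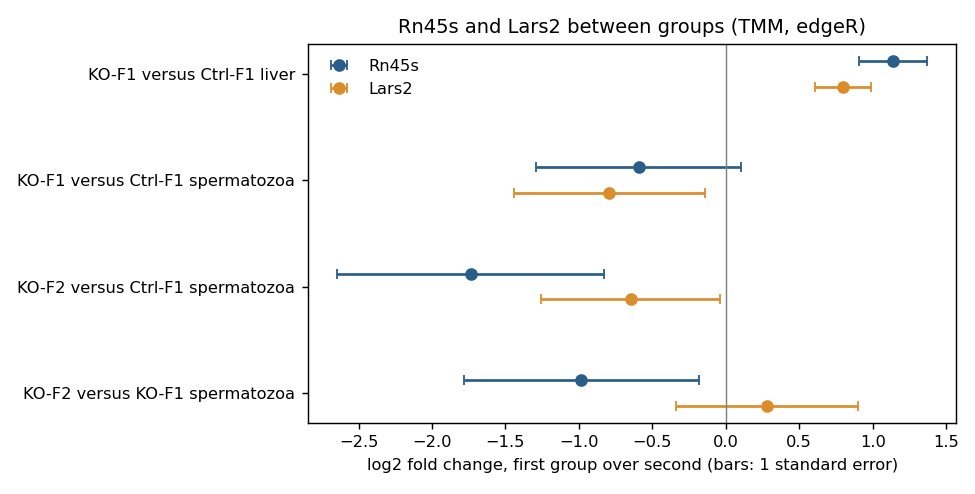
Log2 fold change of Rn45s and Lars2 (horizontal axis, bars of 1 standard error) in each of the 4 comparisons, from edgeR after TMM scaling with 2 libraries a group. The Rn45s and Lars2 values are 1.14 and 0.80 in liver, and in the sperm comparisons the bars are 0.61 to 0.91 wide on either side.

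As an enzyme gene, Lars2 belongs to a family of 19 listed mitochondrial aminoacyl-tRNA synthetase genes, of which Gars and Kars also serve the cytosol. Per kilobase of exon, Lars2 was at 185 and 162 CPM in Ctrl-F1 liver and 264 and 314 CPM in KO-F1 liver. The other 18 genes had medians of 4.02 to 4.75 CPM per kilobase in the 4 livers, the highest of them being Kars at 25.8 to 29.2. Lars2 was thus between 6.27 and 11.2 times the highest other family member in liver. In spermatozoa Lars2 was at 8455 and 12412 CPM per kilobase in Ctrl-F1, at 4824 and 11431 in KO-F1 and at 5415 and 9814 in KO-F2, while the highest other member, Gars or Kars, stayed between 7.93 and 12.7. This put Lars2 between 381 and 1212 times above the highest other member of its family. Its share chose Lars2, so this place is a description, and the length used counts all exons of the gene. Lars, which encodes the cytosolic leucyl-tRNA synthetase, was at 6.79 to 8.64 CPM per kilobase in liver and 0.827 to 3.22 in spermatozoa. At the lower end, Mars2, the mitochondrial methionyl-tRNA synthetase, had 0 counts in both KO-F1 sperm libraries and 4 and 10 in those of Ctrl-F1. Hars2, for histidine, went the other way, with 0 counts in both Ctrl-F1 and 27 and 54 in the KO-F1 sperm libraries. Of the 18 other genes, 6 and 3 had 0 counts in the Ctrl-F1 and 2 and 4 in the KO-F1 sperm libraries.

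**Figure D4:**
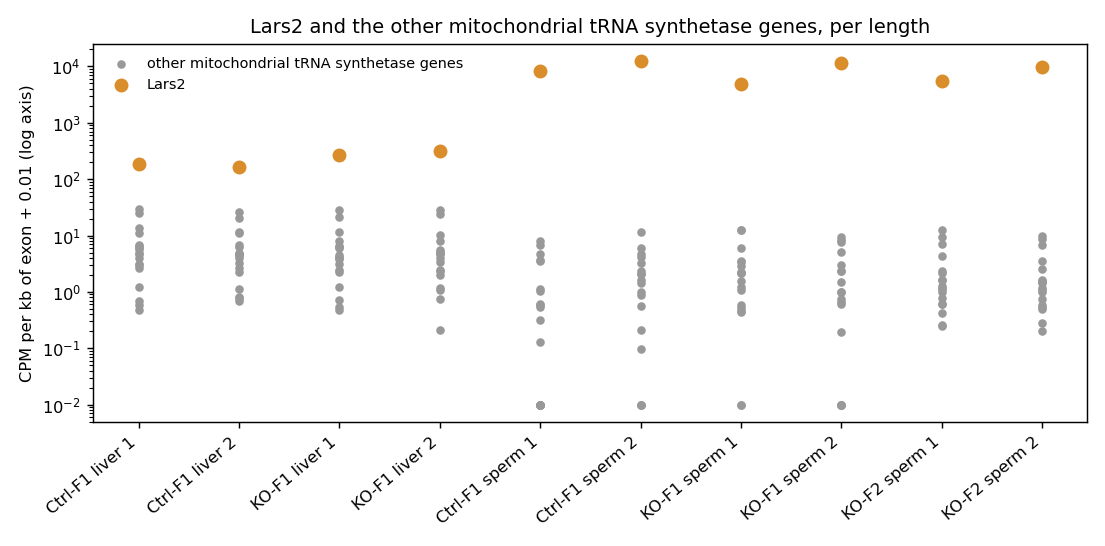
CPM per kilobase of exon plus 0.01 (log axis) of Lars2 and of the 18 other mitochondrial tRNA synthetase genes in each library. Lars2, which was chosen for its share of the counts, lies above all others. It is 6.27 to 11.2 times the highest of them in liver and 381 to 1212 times in spermatozoa. Points at the bottom are genes with 0 counts.

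As a sum, the other synthetase genes did not share the Lars2 pattern across tissues. Their CPM summed to between 0.0388% and 0.0454% of the counts in liver and between 0.0150% and 0.0208% in spermatozoa, lower in every sperm library than in every liver library, whereas Lars2 was higher in every sperm library. Between KO-F1 and Ctrl-F1 liver, 7 of the 18 had a positive and 11 a negative log2 fold change, with a median of -0.10, and 0 were called. Between KO-F2 and KO-F1 spermatozoa 1 of the 18 was called, beside 2.31% of all tested genes. This was Aars2 for mitochondrial alanyl-tRNA synthetase, at 50.9 and 48.5 CPM in KO-F2 and 3.60 and 5.28 CPM in KO-F1 (log2 fold change 3.91, standard error 0.46, adjusted p = 0.00911, edgeR), and without KO-F2 replicate 2 it was also called (4.01, standard error 0.75). In Ctrl-F1 spermatozoa Aars2 was at 49.4 and 33.3 CPM, and in liver at 16.3 to 18.9 CPM, so not every gene followed the sum across tissues.

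In spermatozoa the genes of RNA polymerase I and rRNA processing were also followed. Of the 41 genes, 36 were tested between KO-F1 and Ctrl-F1, with 24 positive and 12 negative log2 fold changes and a median of 0.53 against 0.02 for all tested genes, and 0 were called. Ncl was at 239 and 122 CPM in KO-F1, 56.9 and 48.5 CPM in Ctrl-F1 and 50.0 and 59.6 CPM in KO-F2 spermatozoa. Nop10 was at 401 and 177, 89.0 and 65.2, and 135 and 84.3 CPM in the same order. Both genes were highest in KO-F1 spermatozoa. A link between these genes and the Rn45s level was not tested. Between KO-F2 and KO-F1 the median of the 41 genes was -0.49 against 0.13 for all genes, or -0.40 against 0.00 without KO-F2 replicate 2. In both fits 0 of them were called, where 2.31% and 2.64% of all tested genes were. Mitochondrial ribosome biogenesis genes, 14 of 20 in the tables, had 0 calls in each of the 4 comparisons, in which 0%, 0%, 0% and 2.31% of all tested genes were called, so with 9 to 14 of them tested these counts lay near the background.

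Malat1 was at 591 and 225 CPM with Ctrl-F1, at 290 and 365 CPM with KO-F1 and at 154 and 578 CPM with KO-F2 spermatozoa. Within KO-F2 it was thus higher in replicate 2 than in replicate 1, the opposite order of Rn45s. Neat1 was at 22.3 and 13.3, 13.7 and 25.9, and 8.03 and 12.8 CPM. Rmrp, Rpph1 and the other small RNAs of the list had at most 11 counts in any sperm library.

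The genes whose level over the 6 sperm libraries was most like that of each member were looked up among 6226 other genes with at least 10 counts in each library. For Rn45s these were D330050I16Rik, BC005537, Fgfrl1, Ficd and Trappc12, with a Pearson r of log2(CPM + 1) between 0.94 and 0.96, and for Lars2 they were Arid4a, Timp3, Aebp1, Fmod and Clec3b, with r between 0.92 and 0.96. The 10 genes lay between 3.22 and 82.5 CPM, far below both members. Lars2 stood at place 2410 in the order of likeness to Rn45s, and Rn45s at place 1482 in that of Lars2. With 6 libraries and 6226 genes such values describe these libraries alone.

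Leaving the 2 genes out of the table raises the CPM of every other gene of a library by 1 factor. This factor was 1.01 for both Ctrl-F1 livers and 1.01 and 1.02 for the KO-F1 livers. For spermatozoa it was 1.32 and 1.52 with Ctrl-F1, 1.22 and 1.51 with KO-F1, and 1.19 and 1.09 with KO-F2. The number of counts left for all other genes fell to between 988695 in Ctrl-F1 replicate 2 and 2281200 in KO-F1 replicate 1 among the F1 sperm libraries. Without the 2 genes the 10 most abundant genes took 17.1% to 23.0% of the counts of a sperm library, close to the 19.2% to 22.8% of a liver library, while with them they took 26.0% to 48.1%.

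Because the factors differed between libraries, CPM ratios between groups moved. Prm1, which like Prm2 encodes a protamine, was at 14630 and 7272 CPM in Ctrl-F1 and at 21994 and 22153 CPM in KO-F2 spermatozoa, a ratio of means of 2.02. With both genes left out it was at 19334 and 11060 CPM in Ctrl-F1 and at 26083 and 24048 CPM in KO-F2, and the ratio was 1.65. The ratio of Prm2 between the same groups went from 1.25 to 1.03, from 44425 against 35420 CPM to 50681 against 49320 CPM. Without KO-F2 replicate 2 the ratio went from 2.01 to 1.72 for Prm1 and from 1.38 to 1.18 for Prm2. Between KO-F1 and Ctrl-F1 the ratio of Prm1 went from 0.317 to 0.301 and that of Prm2 from 0.273 to 0.263. Alb, the albumin gene and the most abundant gene in liver, went from a ratio of 1.02 to 1.03 between KO-F1 and Ctrl-F1.

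Over all genes, the shift of log2 CPM between groups, the mean log2 factor of the first group minus that of the second, was 0.01 ± 0.0042 (root of the summed squared SDs, n = 2 per group) between KO-F1 and Ctrl-F1 liver. It was -0.07 ± 0.261 between KO-F1 and Ctrl-F1 spermatozoa, a difference smaller than the spread between replicates. Between KO-F2 and Ctrl-F1 spermatozoa it was -0.32 ± 0.169, and -0.26 ± 0.236 when KO-F2 was set against KO-F1. Without KO-F2 replicate 2 these last values were -0.26 and -0.19. With Rn45s alone left out the shift between KO-F2 and Ctrl-F1 was -0.28, and with Lars2 alone left out it was -0.02.

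How far this reached the fold changes depended on the scaling of the libraries. With library totals alone, leaving both genes out moved the log2 fold change of the other genes between KO-F2 and Ctrl-F1 spermatozoa by a median of -0.31. Of 13109 genes tested both ways, 2945 were at least 2-fold higher and 1491 at least 2-fold lower in KO-F2 with the 2 genes in the table. With both left out, 2141 were higher and 2321 lower, as follows from a shift that all genes of a library share. With TMM the median change was under 0.01, the counts were 2505 higher and 1875 lower before and 2505 and 1874 after. Without KO-F2 replicate 2 the median change was -0.25 with library totals and 0.03 with TMM, and with library totals 2328 genes were higher and 1949 lower before, and 1712 and 2562 after.

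With KO-F2 set against KO-F1 spermatozoa, the median change was -0.25 with library totals and -0.02 with TMM, or -0.19 and 0.01 without KO-F2 replicate 2. Between KO-F1 and Ctrl-F1 spermatozoa the median changes were of like size and opposite sign, -0.06 with library totals and 0.06 with TMM. With TMM, 2488 of 10647 genes were at least 2-fold higher in KO-F1 and 2480 lower before, and 2682 and 2330 after both genes were left out. In liver the median change was 0.01 with library totals and under 0.01 with TMM.

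**Figure D5:**
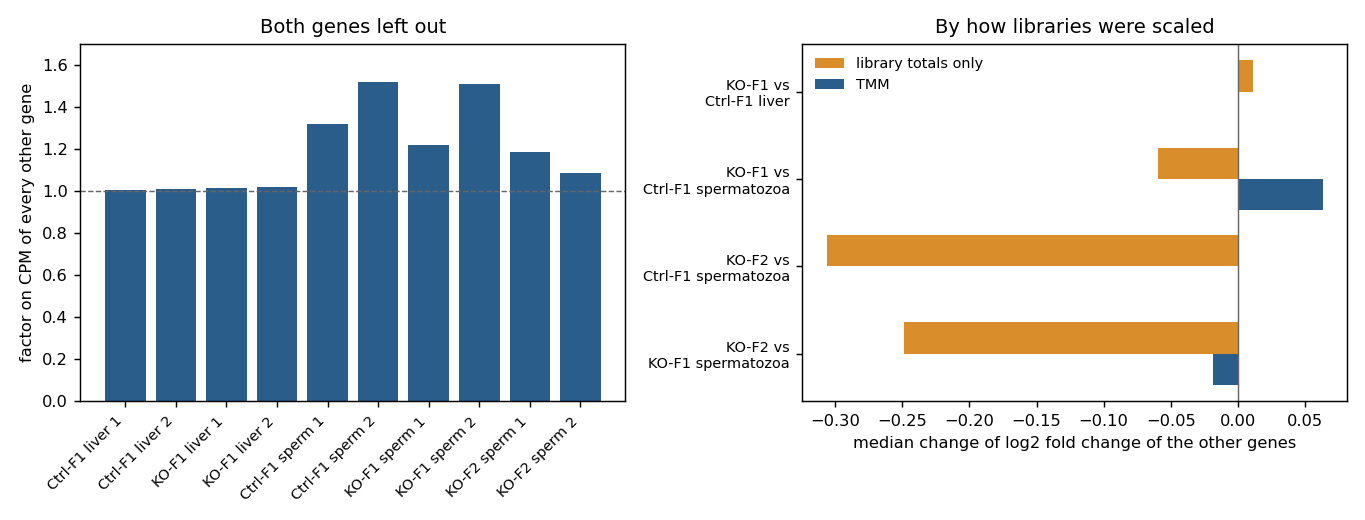
Left, the factor by which the CPM of every other gene rises in each library when Rn45s and Lars2 are left out, from 1.01 in Ctrl-F1 liver to 1.52 in Ctrl-F1 sperm replicate 2 (dashed line: no change). Right, the median change of the log2 fold change of the other genes in each comparison when libraries were scaled by their totals or by TMM, largest at -0.31 for KO-F2 versus Ctrl-F1 spermatozoa with library totals.

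With all libraries, the number of genes called by edgeR with TMM moved in 1 of the 4 comparisons. Between KO-F2 and KO-F1 spermatozoa, 312 genes were called with Rn45s and Lars2 in the table and 536 (3.94% of 13613 tested) with both left out before library sizes and TMM factors were set. All 312 were among the 536, although the log2 fold changes of the genes tested both ways changed by at most 0.03. Leaving out Rn45s alone gave 530 calls and Lars2 alone 299. When the genes tested were held the same, 534 were called, and when both genes were left out only after library sizes and TMM factors were set, 312. The number of prior degrees of freedom that edgeR lends each gene from all others was 5.25 with both genes, 5.78 without them and 5.24 when they were left out late. With both genes in the table, 257 genes of at least 2-fold change had an adjusted p between 0.01 and 0.012, just above the threshold. Without KO-F2 replicate 2, 348 genes were called with both genes and 482 without them, and in the comparison with Ctrl-F1 35 and 51. DESeq2 called 2058 genes with and 2060 without Rn45s and Lars2.

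The 5 gained genes with the smallest adjusted p were Basp1, F10 (coagulation factor X), S100a11, Susd3 and Atp2a3 (an endoplasmic reticulum calcium pump). Basp1 went from an adjusted p of 0.0101 to 0.00771 at a log2 fold change of -2.83 and -2.85. F10, at log2 fold changes of 10.3 both times, went from 0.0101 to 0.00771 as well (edgeR). In the other 3 comparisons, with all libraries, edgeR called 0 genes both with and without the 2 genes. DESeq2 called 20 in liver, Rn45s itself among them, and 19 with the 2 genes left out. It called 390 both times between KO-F1 and Ctrl-F1 spermatozoa and 277 and 286 between KO-F2 and Ctrl-F1 spermatozoa.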

How the data were processed

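Liver RNA was made into libraries with TruSeq Stranded mRNA and RNA of swim-up spermatozoa with SMART-Seq v4, and single-end reads of 75 bp were sequenced. The authors aligned reads with HISAT2 2.1.0 to GRCm38 (mm10) and counted uniquely mapped reads per gene with featureCounts. Counting covered annotated transcripts and repetitive loci. The annotation release and strand setting are not given in the sources used here, and these bear on how many rRNA reads reach a gene. The deposited values are raw counts per gene symbol. Of 23420 lines per file, 4 lines with 2 symbols listed more than once were left out.

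CPM are counts scaled to a common library total, and shares carry 95% Wilson intervals, which like the floor of 3 counts cover counting error only. Comparisons used edgeR 4.0.16 (TMM, filterByExpr with minimum count 10 and minimum total 15, quasi-likelihood F test) on the 4 libraries of each pair of groups, with Benjamini-Hochberg adjustment over all tested genes. A called gene differed by 2-fold or more with its adjusted p below 0.01. A standard error is the absolute log2 fold change divided by the root of F. DESeq2 1.42.0 was an alternative. The study's methods call the replicates of a group independent biological replicates, without saying how many animals each holds. Exon lengths are the union of RefSeq exons. Copies of the last exon of Lars2 were searched with blastn 2.17.0 (word size 16). The fits were checked on simulated counts for the direction and size of log2 fold changes, with no limit set on false calls.

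The 2 genes, the gene lists and most tests were chosen with earlier results of these data known. Named genes were fixed as the 2 members, listed rRNA and small RNA genes, Lars and the highest and lowest synthetase genes, the 2 highest RNA polymerase I list genes and any called, the 5 genes most like each member, the 5 newly called genes with the smallest adjusted p, and Prm1, Prm2 and Alb. Aars2 was named because it was called, and Crisp1 and the genes with a copy of the Lars2 stretch after their values were seen. The ChIP-seq and embryo samples were not analysed here.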

Additional observations from a re-analysis of the deposited data

How the results depend on the processing

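The Rn45s and Lars2 fold changes kept their direction in every alternative run except Lars2 between KO-F2 and KO-F1 spermatozoa, which was 0.28 as reported, -0.0935 with library totals only, and -0.28 to 1.10 with each library left out. Leaving 1 library out could hardly turn the direction in liver, where the groups did not overlap. In liver the thresholds on fold and adjusted p separated Rn45s by DESeq2 (1.14), without a filter (1.13) and without either Ctrl-F1 library (1.12 and 1.17), but neither as reported (1.14) nor without either KO-F1 library (1.36 and 0.89). These values test what chose the gene and are given as a description. Where 1 library is left out, its group's lone library is assumed to vary like those of the other group.

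The replicate numbers are shared between groups, but the deviations of same-numbered libraries correlated at -0.0895 in liver and -0.0087, 0.13 and 0.0538 in the sperm comparisons, and nothing says that they mark pairs. With the numbers as a replicate block, 2, 0, 362 and 819 genes were called in liver, KO-F1 versus Ctrl-F1, KO-F2 versus Ctrl-F1 and KO-F2 versus KO-F1 spermatozoa (0, 0, 0 and 312 without). With this block the Rn45s log2 fold change between KO-F2 and Ctrl-F1 spermatozoa was -1.996, against -1.74 as reported. It passed the thresholds with the block and not as reported. Because its share chose the gene, this is a description only.

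In the same order, the counts were 20, 390, 277 and 2058 by DESeq2, 25, 113, 39 and 2552 without a filter, and 1, 200, 1 and 1805 when each library had to hold 10 counts or more of a gene. All 3 sperm groups in 1 model gave 0, 2 and 198 in the sperm comparisons, and library totals only gave 0 in all 4. Leaving out each library gave 4 to 107, 0 to 0, 35 to 277 and 230 to 2898. In liver it was 107 and 51 without Ctrl-F1 replicate 1 or 2 and 9 and 4 without KO-F1 replicate 1 or 2. For KO-F2 against Ctrl-F1 it was 103 and 277 without Ctrl-F1 replicate 1 or 2 and 75 and 35 without KO-F2 replicate 1 or 2, and for KO-F2 against KO-F1 it was 1551 and 2898 without KO-F1 replicate 1 or 2. With both genes left out, edgeR called 536 between KO-F2 and KO-F1 spermatozoa, or 530 with Rn45s alone left out and 534 with the genes tested kept, and DESeq2 called 19, 390, 286 and 2060. With both genes and KO-F2 replicate 2 left out, edgeR called 51 for KO-F2 against Ctrl-F1 and 482 for KO-F2 against KO-F1. With all libraries, library totals only and both genes left out, edgeR called 255 between KO-F2 and KO-F1 spermatozoa, 65 higher and 190 lower. The 536 with TMM were 455 higher and 81 lower. The causes were not tested.

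With Lars2 alone left out the shift of log2 CPM was 0.00074 in liver, -0.0153 (of -0.0651 for both genes) for KO-F1 against Ctrl-F1 spermatozoa, -0.0188 for KO-F2 against Ctrl-F1 and -0.0035 for KO-F2 against KO-F1 spermatozoa. With each library left out it ranged from 0.0085 to 0.0144 in liver, -0.219 to 0.0891 between KO-F1 and Ctrl-F1, -0.423 to -0.22 for KO-F2 against Ctrl-F1 and -0.41 to -0.102 for KO-F2 against KO-F1. The added tests with 1 gene or both left out late, with the genes tested kept, without KO-F2 replicate 2 as well, or by DESeq2 were chosen after seeing the data. At 1503733 to 2778171 counts, of which up to 34.3% are these 2 genes, low genes of F1 spermatozoa are the least reliable.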
